A study of Mus musculus with 9 samples.

Results

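The solute carrier genes (Slc and Slco) accounted for 28 of 1810 RING1B peaks in Eed-/- mouse embryonic stem cells (mESCs) and for 47 of 2347 in Eed+/+ mESCs. A peak was counted when the gene that the authors assigned to it had a symbol beginning with Slc or Slco and a digit, and Slc25a31 was left out. The 28 Eed-/- peaks carried 27 gene names and the 47 Eed+/+ peaks 43, with 18 names in both lists and 52 in either. The Eed-/- cells lack functional EED, the Eed+/+ cells are wild type, and the labels describe both as C57BL/6 embryonic stem cells. Chromatin of each genotype was precipitated with a RING1B antibody and sequenced, and each list is 1 call per genotype. The labels number 3 Eed-/- RING1B samples as replicates, which the paper's methods describe as lanes, and 1 Eed+/+ sample. There is therefore no replicate error, no p-value is given, and intervals cover counting error only, except where stated. CBX7 samples and Eed+/+ input samples are also labelled in the series and were not analysed here.

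Solute carriers are membrane proteins that move amino acids, sugars, ions, metals, neurotransmitters and drugs across the plasma membrane or the membranes of vesicles and mitochondria. Many are made only in particular differentiated cells, such as the vesicular carriers that load neurotransmitters in neurons. RING1B is the catalytic subunit of PRC1, which monoubiquitylates histone H2A at silent developmental genes, most of them with CpG-rich start sites. EED is a core subunit of PRC2, the complex that methylates H3K27.

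Windows just upstream of start sites with RING1B differed in CpG content. The 200 bases just upstream of the outermost annotated start of 6 of these genes are printed to show this. They are the pair of highest fold enrichment of each kind (peaks in both genotypes, in Eed-/- only and in Eed+/+ only) whose window lay inside the peak and outside annotated exons. Each is given in transcription direction (mm9, NCBIM37 assembly), with CG dinucleotides in capitals.
Slc35d3 (both, chr10:19571266-19571465, - strand): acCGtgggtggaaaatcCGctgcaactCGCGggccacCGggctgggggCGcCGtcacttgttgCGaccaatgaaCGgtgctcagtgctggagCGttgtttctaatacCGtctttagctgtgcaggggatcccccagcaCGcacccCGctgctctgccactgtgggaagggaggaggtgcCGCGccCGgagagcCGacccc
Slc30a3 (both, chr5:31395989-31396188, - strand): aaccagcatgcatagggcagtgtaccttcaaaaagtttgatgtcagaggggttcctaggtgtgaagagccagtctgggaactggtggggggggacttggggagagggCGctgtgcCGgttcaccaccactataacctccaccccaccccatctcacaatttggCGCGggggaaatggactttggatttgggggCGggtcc
Slc30a10 (Eed-/- only, chr1:187278527-187278726, + strand): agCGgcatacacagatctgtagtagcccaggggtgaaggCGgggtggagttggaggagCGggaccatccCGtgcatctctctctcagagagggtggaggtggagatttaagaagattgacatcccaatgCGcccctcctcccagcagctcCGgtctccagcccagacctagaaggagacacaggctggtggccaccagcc
Slc6a15 (Eed-/- only, chr10:102830277-102830476, + strand): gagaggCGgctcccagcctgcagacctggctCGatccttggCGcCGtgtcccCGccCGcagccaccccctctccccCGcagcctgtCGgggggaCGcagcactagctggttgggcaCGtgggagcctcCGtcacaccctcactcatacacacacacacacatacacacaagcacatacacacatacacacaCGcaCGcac
Slc6a20a (Eed+/+ only, chr9:123588004-123588203, - strand): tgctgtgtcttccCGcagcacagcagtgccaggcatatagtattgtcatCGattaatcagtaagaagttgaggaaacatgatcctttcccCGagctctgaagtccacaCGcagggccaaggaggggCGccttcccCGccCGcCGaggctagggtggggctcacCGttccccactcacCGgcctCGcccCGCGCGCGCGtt
Slc6a17 (Eed+/+ only, chr3:107320937-107321136, - strand): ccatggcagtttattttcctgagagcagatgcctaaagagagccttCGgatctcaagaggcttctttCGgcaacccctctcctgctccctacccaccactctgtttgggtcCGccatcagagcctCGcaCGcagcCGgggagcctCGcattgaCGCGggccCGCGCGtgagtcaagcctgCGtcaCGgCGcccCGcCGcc
The windows hold 17 CG dinucleotides at Slc35d3, 5 at Slc30a3, 6 at Slc30a10, 13 at Slc6a15, 16 at Slc6a20a and 17 at Slc6a17. The median over 22367 windows of the same length upstream of all protein-coding genes was 7, and 90.4% of those windows had at least 1 CG. The windows of Slc30a3 and Slc30a10 were thus below the genome median. The RING1B peaks that covered them also covered CpG islands, 3 in each Slc30a3 peak and 1 in the Slc30a10 peak. The windows do not measure the CpG content of the whole peak. Over the genes with windows, the median was 11 for the 17 genes with overlapping peaks, 13 for the 9 genes of the Eed-/- list only and 10 for 24 genes of the Eed+/+ list only. Some of these windows lay far from the RING1B peak of the gene, as at Slc1a4, Slc2a10, Slco2b1 and Slc38a10. The medians therefore do not describe only start sites with RING1B.

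The peaks of solute carrier genes overlapped between the genotypes at a share whose interval held that of all peaks. Of the 28 Eed-/- peaks, 18 shared at least 1 bp with an Eed+/+ peak (64.3%, exact Clopper-Pearson 95% interval 44.1% to 81.4%), against 73.1% of all Eed-/- peaks. Of the 47 Eed+/+ peaks, 18 met an Eed-/- peak (38.3%, interval 24.5% to 53.6%), against 53.1% of all Eed+/+ peaks. Of 367 annotated protein-coding Slc and Slco genes, 27 were named in the Eed-/- list (7.36%, interval 4.90% to 10.5%) and 42 in the Eed+/+ list (11.4%, interval 8.37% to 15.2%). The same shares over all 22238 protein-coding gene names were 6.75% in Eed-/- and 8.09% in Eed+/+, where the second lies just below the interval of the transporter genes. The annotation holds 51 of the 52 names and lacks Slc18a3. Other transporter lists were short. ABC transporters had 4 Eed-/- peaks, of which the Abcg4 peak overlapped, and 1 Eed+/+ peak. ATPase pumps had 2 Eed-/- and 4 Eed+/+ peaks, with an overlap at Atp8b1, and aquaporins had 0 Eed-/- peaks and 2 Eed+/+ peaks, at Aqp2 and Aqp5.

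The genes were grouped into classes by family number, named for what most of a family carries, so some members carry something else. Differences between classes, with counts of 0 to 9 genes each, were not tested, and 73.1% of all Eed-/- and 53.1% of all Eed+/+ peaks overlapped. All 3 genes with a peak in the nucleoside and nucleotide sugar class, Slc35d3, Slc35e4 and Slc35f1, had overlapping peaks in both genotypes, out of 30 annotated. Organic ion and drug carriers had overlapping peaks at 5 genes (Slc22a12, Slc22a23, Slco2b1, Slco3a1 and Slco5a1), and 3 more (Slc22a3, Slc22a7 and Slco2a1) were in the Eed+/+ list only. The 3 mitochondrial carriers, Slc25a23, Slc25a25 and Slc25a33, were in the Eed-/- list only, out of 43 annotated. The neurotransmitter class held 9 genes, of which Slc32a1 and Slc6a11 had overlapping peaks, Slc6a15 was in Eed-/- only and 6 were in Eed+/+ only. The class takes in the whole Slc6 family, including Slc6a15, Slc6a17 and Slc6a20a, which carry neutral amino or imino acids. The 6 included Slc17a6, the vesicular glutamate carrier, Slc18a3, the vesicular acetylcholine carrier, and Slc6a2, the noradrenaline carrier. None of the 7 genes of the amino acid families (Slc1, Slc7, Slc36, Slc38 and Slc43) had overlapping peaks, since Slc1a4, Slc36a4 and Slc38a1 were in the Eed-/- list and Slc1a2, Slc38a10, Slc43a1 and Slc7a10 in the Eed+/+ list. Inorganic ion carriers had 3 genes with overlapping peaks (Slc24a3, Slc8a3 and Slc9a2) and 5 in Eed+/+ only (Slc24a2, Slc24a4, Slc26a4, Slc4a4 and Slc8a1). Among metal carriers, Slc30a2 and Slc30a3 had overlapping peaks, Slc30a10 was in Eed-/- only, and Slc39a8 and Slc41a2 were in Eed+/+ only. The sugar and carboxylate class had overlapping peaks at Slc16a11 and Slc45a3, an Eed-/- peak at Slc2a10 and Eed+/+ peaks at genes including Slc13a5, Slc2a13 and Slc5a5, of which Slc5a5 carries iodide. Slc16a8 was named in both lists by peaks at different places, and the choline-like carrier Slc44a5 was the only lipid and vitamin carrier, in the Eed+/+ list.

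**Figure D1:**
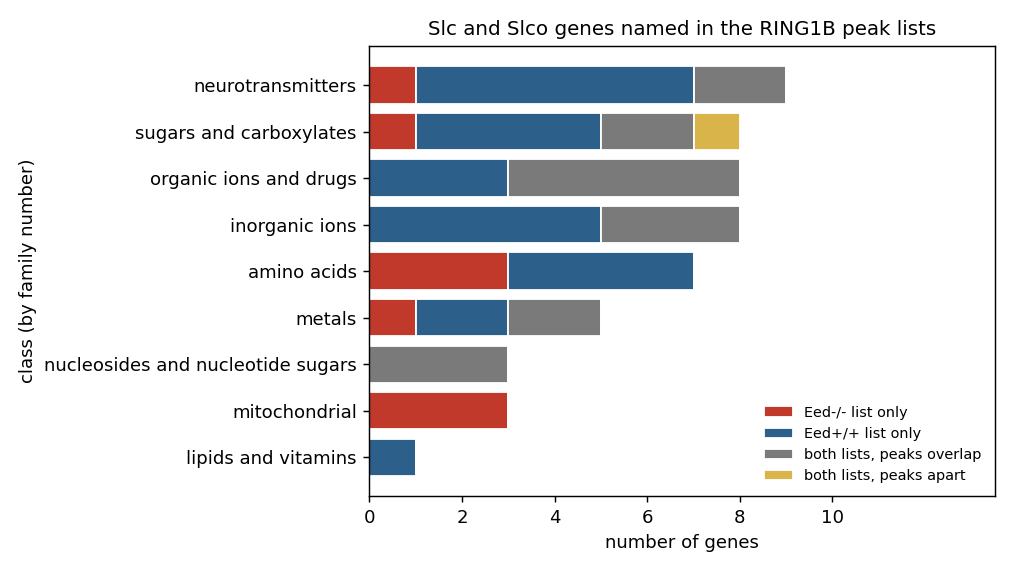
Number of Slc and Slco genes named in the RING1B peak lists (x axis) per class, set by family number (y axis), split by the list or lists that name them. Of genes with a peak, all 3 of the nucleoside and nucleotide sugar class are in both lists. All 3 of the mitochondrial class are in the Eed-/- list only. The neurotransmitter class, which includes the amino acid carriers of the Slc6 family, reaches 9 genes, 6 of them in the Eed+/+ list only. Over all peaks, 73.1% of Eed-/- and 53.1% of Eed+/+ peaks overlapped.

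Scaled to mapped tags, RING1B was lower in Eed-/- mESCs at each of the 18 overlapping transporter peaks. Where several Eed-/- peaks met an Eed+/+ peak, the longest overlap made the pair, and the level was taken as tags per kb of peak per 1000000 mapped tags. Levels ran between 1.06 and 2.31 in Eed-/- cells (median 1.31) and between 2.69 and 13.8 in Eed+/+ cells (median 4.45), so the ranges did not overlap. The level was lower in Eed-/- in 18 of 18 pairs, as in 1247 of 1247 pairs over all peaks, and the 95% counting interval of the ratio ended below 1 in all 18. Dividing Eed-/- by Eed+/+ levels gave a median ratio of 0.269 (quartiles 0.201 and 0.328), against 0.225 (quartiles 0.179 and 0.303) over all pairs. Without the scaling to mapped tags, the median ratio of tags per kb was 1.12, on the other side of 1. The ratio of fold enrichment, used as deposited with no further scaling here, had a median of 0.299. Eed-/- RING1B was sequenced 4.18 times as deeply and both lists demand more than 100 tags, so weak peaks could be called at a lower level in Eed-/-. The ratio expected of 2 peaks of equal width and tag number is 0.239, and the part of this limit in the ratios was not tested.

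**Figure D2:**
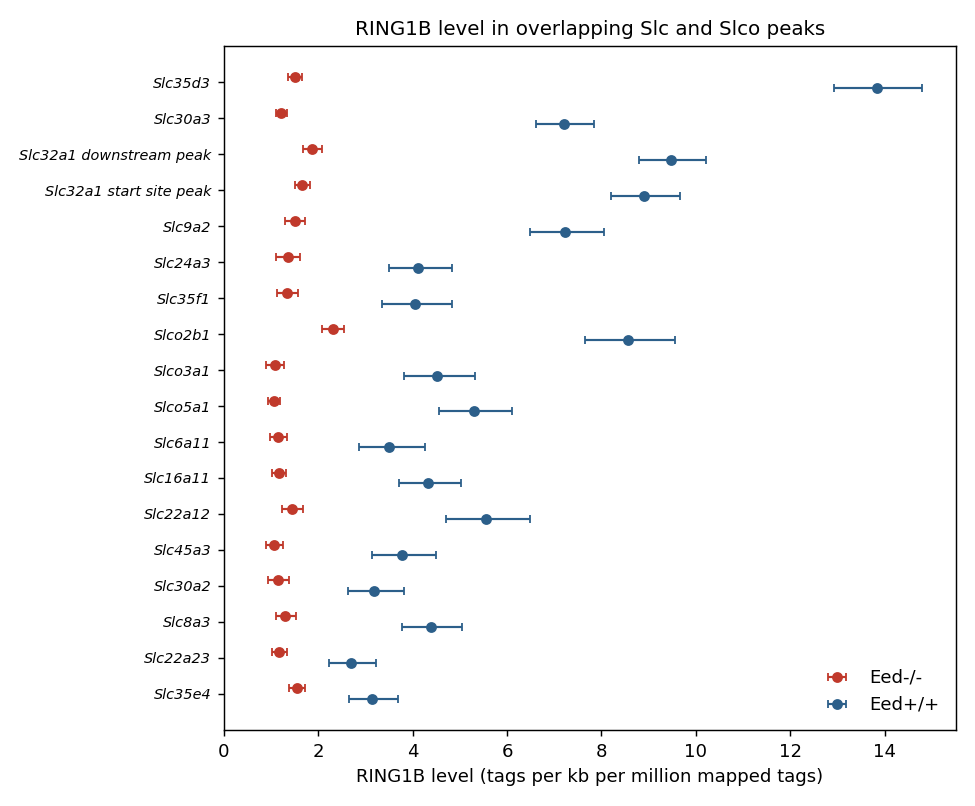
RING1B level (tags per kb of peak per 1000000 mapped tags, x axis) of the 18 pairs of overlapping Slc and Slco peaks, Eed-/- in red above Eed+/+ in blue, ordered by Eed+/+ fold enrichment. Bars are exact 95% Poisson intervals of the tag number, and the Eed-/- points lie between 1.06 and 2.31, all left of the Eed+/+ points.

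The nucleotide sugar carrier family held the lowest and the highest ratio. Slc35d3, an orphan member of the family, had the highest Eed+/+ fold enrichment of all transporter peaks. Its Eed-/- peak (chromosome 10, 19568595 to 19572191) reached level 1.51 and fold enrichment 6.56 with its 381 tags. The Eed+/+ peak (19568496 to 19572218) reached level 13.8 and fold enrichment 46.7 with 866 tags. The ratio of 0.109 (95% counting interval 0.0962 to 0.123) was the lowest of the 18, although 96.6% of the Eed+/+ peak was covered by the Eed-/- peak, which lay inside it. Slc35e4, another orphan member, had an Eed-/- peak of 314 tags and a level of 1.55 and an Eed+/+ peak of 145 tags and a level of 3.14. Its ratio of 0.493 (interval 0.403 to 0.604) was the highest, and its Eed+/+ fold enrichment of 8.37 was the lowest of the overlapping peaks. Slc35f1 had the highest Eed-/- fold enrichment of all transporter peaks, 7.93, against 19.85 in Eed+/+ cells, with levels of 1.33 in Eed-/- and 4.04 in Eed+/+.

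Slc30a3 and Slc32a1, which encode carriers of synaptic vesicles, followed Slc35d3 in Eed+/+ fold enrichment. Other vesicular carriers, Slc17a6, Slc18a3 and Slc6a17, had lower fold enrichments and no overlapping Eed-/- peak. By level, the Eed+/+ peak of Slc18a3 (8.05) was above that of Slc30a3 (7.21). Slc32a1 encodes the vesicular carrier of GABA and glycine and was the only gene with 2 peaks in each list. At its start site (chromosome 2) the Eed-/- peak (158435185 to 158438723) had 412 tags and a level of 1.65, and the Eed+/+ peak (158434508 to 158438402) had 583 tags and a level of 8.90. The peak in the gene body had 338 tags and a level of 1.87 in Eed-/- cells (158438926 to 158441495) and 696 tags and a level of 9.48 in Eed+/+ cells (158438424 to 158442789). The ratios were 0.186 (interval 0.163 to 0.211) and 0.197 (interval 0.173 to 0.225), and these intervals overlap. Slc30a3 loads zinc into synaptic vesicles. Its Eed-/- peak (chromosome 5, 31393928 to 31398317) was the widest of that list's transporter peaks at 4390 bp, and had level 1.21 and fold enrichment 5.42. The Eed+/+ peak was 4528 bp wide (31393838 to 31398365) and had level 7.21 and fold enrichment 38.39, and the ratio was 0.168 (interval 0.147 to 0.192). Both Slc30a3 peaks also held a start site of Gm9924. Slc6a11, a plasma membrane GABA carrier, had a fold enrichment of 6.18 in Eed-/- and 14 in Eed+/+ cells, with a ratio of 0.328 (interval 0.254 to 0.425). The other zinc carrier with overlapping peaks, Slc30a2, had levels of 1.14 in Eed-/- and 3.18 in Eed+/+ cells.

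Ion exchangers had overlapping peaks at 3 start sites. Slc9a2, a sodium/proton exchanger, had an Eed-/- peak (chromosome 1, 40737464 to 40739427) with 207 tags and a level of 1.498 inside an Eed+/+ peak (40736932 to 40739661) with 332 tags and a level of 7.23. Slc24a3, a sodium/calcium-potassium exchanger, had levels of 1.35 in Eed-/- and 4.12 in Eed+/+ cells, and its Eed-/- peak of 1211 bp covered 56.0% of the 2164 bp Eed+/+ peak. The deposited distance of these Slc24a3 peaks to the first exon of the assigned transcript was -74323 bp (Eed-/-) and -74544 bp (Eed+/+), but a GENCODE start site of the same gene lies in both. Slc8a3, a sodium/calcium exchanger, had levels of 1.30 in Eed-/- and 4.38 in Eed+/+ cells, a ratio of 0.297.

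Organic anion and monocarboxylate carriers had ratios on either side of the median. Slco2b1 stood out by the highest Eed-/- level of the overlapping peaks, 2.31 from 370 tags, against 8.56 from 320 tags in Eed+/+ cells (ratio 0.269, interval 0.231 to 0.314). That pair lies 37359 bp (Eed-/-) and 37544 bp (Eed+/+) from the nearest annotated Slco2b1 start site, over a start site of the predicted gene Gm4980. Slco3a1 had levels of 1.07 in Eed-/- and 4.52 in Eed+/+ cells. Slco5a1, an orphan member, was the only pair in which the Eed-/- peak was much wider, at 4158 bp in Eed-/- against 2100 bp in Eed+/+. The Eed-/- peak ran across the start site, whereas the Eed+/+ peak ended 232 bp before it, and the levels were 1.06 in Eed-/- and 5.30 in Eed+/+. Its ratio of 0.199 (interval 0.166 to 0.241) lay below the lower quartile of the pairs. Slc16a11, a monocarboxylate carrier, had levels of 1.16 in Eed-/- and 4.33 in Eed+/+ cells, and the urate carrier Slc22a12 had 1.44 in Eed-/- and 5.54 in Eed+/+ cells at its overlapping peak. The 2 remaining pairs were the orphan Slc22a23, with a ratio of 0.438, and the putative sugar carrier Slc45a3, with a ratio of 0.282.

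The peaks called in Eed-/- mESCs only had low fold enrichments and few tags for their depth. These 10 peaks had a median fold enrichment of 4.73 and a median level of 1.30, against 4.96 and 1.31 for the 18 Eed-/- peaks with an overlap. Over all Eed-/- peaks the median fold enrichment was 4.79 without and 4.94 with an overlap. Slc25a23, a mitochondrial ATP-Mg/phosphate carrier, had the highest fold enrichment of the 10, 7.61, from 105 tags (chromosome 17, 57198230 to 57199346). Its peak also held the start site of Crb3, and the 128-tag peak of the related carrier Slc25a25 (chromosome 2, 32305840 to 32307144, fold enrichment 5.57) also held that of Naif1. Slc25a33, a mitochondrial pyrimidine nucleotide carrier, had 112 tags at a fold enrichment of 5.05. Slc30a10, a manganese exporter, and Slc6a15, a neutral amino acid carrier, each had a fold enrichment of 5.85, from 186 and 171 tags. The glutamine carrier Slc38a1 had 205 tags at a fold enrichment of 4.26, and the amino acid carrier Slc36a4 had 119 tags at 4.11, both with the start site inside the peak. Slc2a10, a facilitative sugar carrier, had 123 tags at 4.4 in a peak 54279 bp from its start site. The neutral amino acid carrier Slc1a4 was assigned a peak 45799 bp from its start site, off any CpG island, which had the highest level of the Eed-/- transporter peaks, 2.53, at a fold enrichment of only 4.00. At an equal level, these 10 peaks would hold 25.1 to 65.7 tags at the Eed+/+ depth, under the minimum of the list. The same is true of the 18 overlapping Eed-/- peaks, and 120 of all 1810 Eed-/- peaks would exceed 100 tags. The absence of an Eed+/+ peak at these genes therefore does not show that RING1B was lower there in Eed+/+ cells.

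The peaks called in Eed+/+ mESCs only reached higher values. These 29 peaks had a median fold enrichment of 13.3 and a median level of 4.24, against 15.9 and 4.45 for the 18 Eed+/+ peaks with an overlap. Over all Eed+/+ peaks the corresponding median fold enrichments were 13.3 without and 19.7 with an overlap. Slc24a4, a sodium/calcium-potassium exchanger, had the highest fold enrichment, 23.1, from 302 tags (chromosome 12, 103365484 to 103368388). Slc6a5, the plasma membrane glycine carrier of inhibitory neurons, had 2 peaks, with 164 tags at a fold enrichment of 16.5 (chromosome 7, 57163220 to 57164921) and 151 tags at 20.6 (57166502 to 57167967). The upstream peak was off CpG islands. Slc8a1, a sodium/calcium exchanger, had 209 tags at 20.25 in a peak 19124 bp from its nearest GENCODE start site. The imino acid carrier Slc6a20a (138 tags) had a fold enrichment of 19.4, in a peak that also held the start site of Ccr9. The vesicular amino acid carrier Slc6a17 (195 tags) had 19.1 and the glial glutamate carrier Slc1a2 (159 tags) 18.6. Slc18a3, encoding the vesicular acetylcholine carrier, lies within the locus of Chat, which encodes the enzyme that makes acetylcholine. Its peak was the widest of all transporter peaks at 5926 bp (chromosome 14, 33273623 to 33279548), and it held a Chat start site. The 802 tags in it gave level 8.05 and fold enrichment 17.6.

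**Figure D3:**
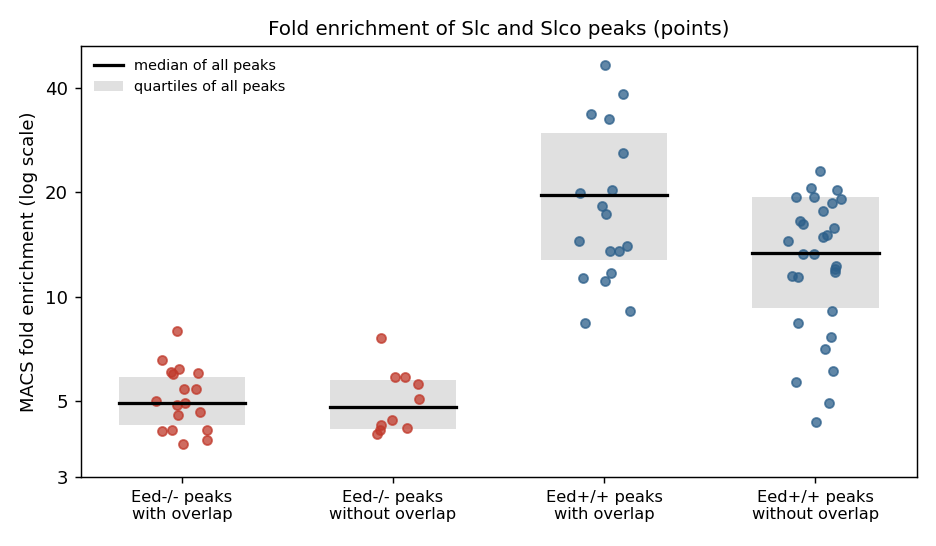
MACS fold enrichment (y axis, log scale) of each Slc and Slco peak (points), Eed-/- in red and Eed+/+ in blue, with and without an overlapping peak in the other genotype. Black lines and grey bands are the median and quartiles of all peaks of that kind, and the transporter points spread around them, up to 7.93 in Eed-/- and 46.7 in Eed+/+.

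The ratios of the pairs come only from sites that passed the Eed-/- minimum. At the lowest of them, that of Slc35d3, 25 of the 29 Eed+/+ peaks would hold 100 tags or fewer in a peak of the same width in Eed-/- cells. At the median level ratio (0.269), 0 of the 29 would, with 115 to 902 tags each. At the median ratio of fold enrichment (0.299), 7 of the 29 would fall below 2.71, the smallest fold enrichment of the Eed-/- list, as would 1 of the 18 overlapping peaks. The lists hold no tag numbers for places without a call, so the Eed-/- level at the 29 sites was not measured here.

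Most transporter peaks covered a start site, and most covered a CpG island. A protein-coding start site lay in or within 1 kb of 23 of 28 Eed-/- peaks (82.1%, interval 63.1% to 93.9%) and 39 of 47 Eed+/+ peaks (83.0%, interval 69.2% to 92.4%), against 79.6% of all Eed-/- and 75.6% of all Eed+/+ peaks. The start site of the named gene itself was inside 21 of 28 Eed-/- peaks (interval 55.1% to 89.3%), against 66.1% of all Eed-/- peaks. In Eed+/+ cells that site was inside 32 of 47 peaks (interval 52.9% to 80.9%), against 64.5% of all Eed+/+ peaks. A CpG island was covered by 27 of 28 Eed-/- peaks (96.4%) and 45 of 47 Eed+/+ peaks (95.7%), against 95.2% of all Eed-/- and 94.1% of all Eed+/+ peaks. Besides Slc1a4 in Eed-/- and the upstream Slc6a5 peak in Eed+/+, the Slc17a6 peak of Eed+/+ cells, which began 2524 bp inside the gene, was off islands. All 18 pairs shared an island, as did 1234 of 1247 over all pairs (99.0%). Median GC content was 61.5% in Eed-/- and 59.0% in Eed+/+ peaks, against 60.9% over all Eed-/- and 58.3% over all Eed+/+ peaks. The median observed to expected CpG ratio was 0.638 in Eed-/- and 0.588 in Eed+/+. Over all peaks it was 0.678 in Eed-/- and 0.601 in Eed+/+. The point of highest tag density lay on the transcribed side of the start site in 16 of 23 Eed-/- peaks and 30 of 38 Eed+/+ peaks within 5 kb of it, at a median of 350 bp in Eed-/- and 337 bp in Eed+/+. No such count was made over all peaks, so whether transporter peaks differ from them in this was not tested.

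**Figure D4:**
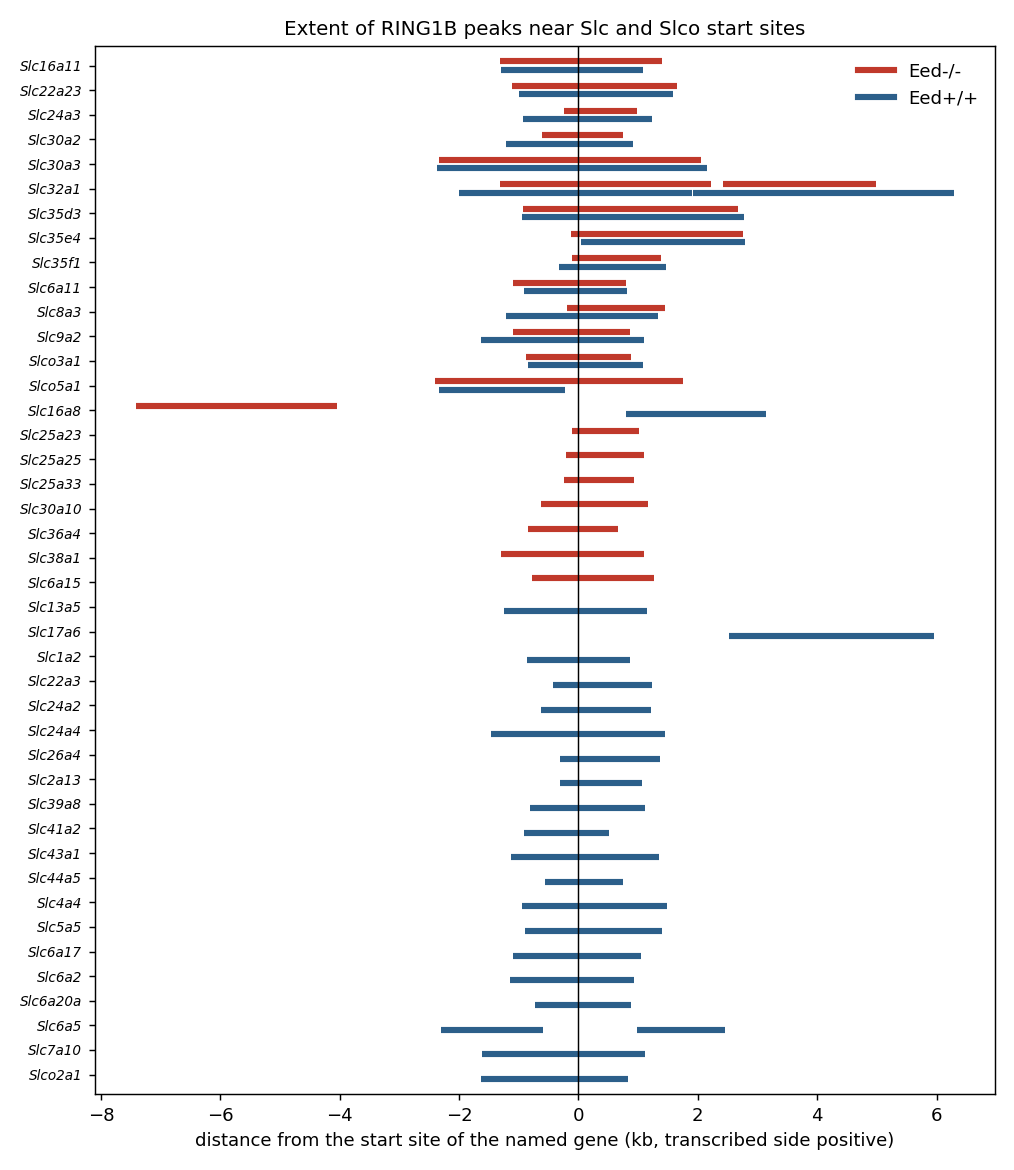
Extent of RING1B peaks within 5 kb of the start site of Slc and Slco genes named in the text, as distance from that site in kb (x axis, transcribed side positive), with Eed-/- peaks in red above Eed+/+ peaks in blue for each gene (y axis). Genes with overlapping peaks come first, then Slc16a8, then genes of the Eed-/- list only and of the Eed+/+ list only, and most bars cross the start site at 0.

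The median width of transporter peaks was below that of the whole list in both genotypes. The median width was 1916.5 bp (quartiles 1504 and 2727) in Eed-/- and 2297 bp (quartiles 1817 and 2739) in Eed+/+, against 2155 bp for all Eed-/- peaks and 2665 bp for all Eed+/+ peaks. The quartiles of the transporter peaks hold both medians, and the difference was not tested. Within the pairs the Eed-/- peak was narrower in 12 of 18 (median width ratio 0.955, range 0.560 to 1.98), against 950 of 1247 over all pairs (median 0.833). The Eed-/- peak lay wholly inside the Eed+/+ peak in 8 of 18 pairs (44.4%), against 716 of 1247 over all pairs (57.4%). The reverse held in 3 of 18 (16.7%), at Slco5a1, Slc16a11 and Slc22a23, against 129 of 1247 (10.3%). The FDR differed between the lists. Of the transporter peaks, 5 of 28 Eed-/- peaks (17.9%, interval 6.06% to 36.9%) and 47 of 47 Eed+/+ peaks had an FDR of 1% or less, against 24.1% of all Eed-/- and 99.9% of all Eed+/+ peaks.

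Several peaks were assigned to a transporter but lay at or in another gene. The nearest protein-coding start site belonged to another gene in 3 of 28 Eed-/- peaks (Slc16a8, Slc1a4 and Slco2b1) and 5 of 47 Eed+/+ peaks (Slc18a3, a Slc22a12 peak, both Slc22a7 peaks and Slco2b1). Slc18a3 is counted there only because the annotation lacks it. The deposited distance of its peak to the first exon of the assigned transcript was 1450 bp. The Slc16a8 peak of Eed-/- cells (chromosome 15, 79089235 to 79092611, fold enrichment 4.18) lay in Baiap2l2 over its start site, whereas the Eed+/+ peak (79082051 to 79084389, fold enrichment 4.94) lay in Slc16a8 itself, a lactate carrier of the retinal pigment epithelium. Both Slc22a12 peaks of Eed+/+ cells lay in Nrxn2, which encodes a synaptic adhesion protein. The Eed+/+ peak over a Nrxn2 start site (chromosome 19, 6497317 to 6500915, 250 tags, fold enrichment 19.3) had no overlap, and the other (6530970 to 6532621, 154 tags, fold enrichment 13.54) overlapped an Eed-/- peak of 158 tags at 4.08 (6530976 to 6532534). The organic anion carrier Slc22a7 was named by 2 Eed+/+ peaks in Ttbk1, a kinase gene, with 132 tags at 8.40 and 122 tags at 7.06 (chromosome 17, 46590798 to 46594029 and 46596152 to 46598646).

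The other Eed+/+ peaks without an overlap had fold enrichments between 4.33 and 16.2. Among them were peaks at the start sites of the organic cation carrier Slc22a3 (13.3), the anion exchanger Slc26a4 (11.4), the inositol carrier Slc2a13 (11.8), the metal carrier Slc39a8 (15.1), the magnesium carrier Slc41a2 (11.4), the bicarbonate carrier Slc4a4 (14.4), the iodide carrier Slc5a5 (7.64) and the prostaglandin carrier Slco2a1 (5.67). Slc44a5 had 15.8, the exchanger Slc24a2 14.9, the amino acid carriers Slc7a10 16.2 and Slc43a1 6.09, the noradrenaline carrier Slc6a2 13.3, and the citrate carrier Slc13a5 4.33. Slc17a6 had 12.3 in the gene body, and Slc38a10 had 9.10 in a peak 35177 bp from its start site.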

How the data were processed

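The data were 2 deposited RING1B peak lists, from Eed-/- and Eed+/+ mESCs. The authors mapped tags to mm9 with bowtie, discarded tags with several positions, and used MACS to call peaks of more than 100 tags within an FDR limit, with tool versions and MACS control not given in the sources used here. The paper's methods give 70343706 mapped tags for Eed-/- and 16814546 for Eed+/+ RING1B. For each peak the deposited lists hold tag counts, a fold enrichment ratio, an FDR in percent, a score from the p-value (minus its log10, times 10) and the assigned gene. The authors' own flags of overlap between lists were not used.

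Levels were tags per kb per 1000000 mapped tags, without subtraction of input. Peaks overlapped at 1 bp or more. Ratio intervals are exact binomial, shares Clopper-Pearson. Start sites came from GENCODE M1. CpG islands were found by a running score (17 for CG, -1 otherwise) if they had 200 bp, 50% GC and 0.6 of the expected CpG (23762 islands). The overlap, interval and island code was tested on simulated data. Alternatives covered the overlap rule, FDR, fold enrichment, scaling and gene assignment. Values are given in full for the overlapping genes of highest Eed+/+ fold enrichment, the highest genes of each single list, the extreme ratios and genes with several peaks. A gene of the Eed+/+ list is counted but not reported here by name. Members and lists were chosen with earlier results of these data known. Python 3.11.15, numpy 2.4.6, scipy 1.17.1, numba 0.67.0 and matplotlib 3.10.9 were used.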

Additional observations from a re-analysis of the deposited data

How the results depend on the processing

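Limiting both lists to an FDR of at most 1% left 5 Eed-/- peaks (5 genes), of which 100% overlapped an Eed+/+ peak, and 12.8% of the 47 Eed+/+ peaks overlapped one of them. Over all Eed-/- peaks, 374 of the 436 within that limit overlapped an Eed+/+ peak. Under that limit the median level ratio of 6 pairs was 0.180 and the median Eed-/- width 3539 bp. Among these pairs the start site peak of Slc32a1 in Eed-/- cells served both Eed+/+ peaks of the gene. Its gene body peak in Eed-/- cells had an FDR of 1.57% and dropped out. Requiring a fold enrichment of at least 5 in both lists lowered the Eed+/+ share to 20.0% of 45 peaks. The shares of all Eed+/+ peaks under the FDR and fold enrichment limits are not given here. Without scaling to mapped tags the median ratio of tags per kb was 1.12, which turns the direction round, and the cause is the depth ratio itself. With islands of at least 500 bp, 76.6% of the Eed+/+ transporter peaks lay on an island, against 77.7% of all Eed+/+ peaks. Taking members by the nearest GENCODE start site gave overlaps of 68.0% of 25 Eed-/- peaks and 39.5% of 43 Eed+/+ peaks. The shares of all peaks, which do not depend on gene assignment, were 73.1% in Eed-/- and 53.1% in Eed+/+. All other alternatives run for shares stayed within the counting interval of the value reported, and gene counts within 1.5 times of it. For the median level ratio they stayed between 0.199 and 0.328, its order-statistic 95% interval. That interval reflects the spread between pairs and not counting error. Median widths stayed within the quartiles of the transporter peaks. No paired analysis was possible because each genotype has 1 peak list, made from pooled tags, and the numbered samples have no values of their own. Depth limits the comparison: a level is known only where a peak was called.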
